A study of Mus musculus with 12 samples.

Results

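Adm, Ankrd37, Ndrg1, P4ha1, P4ha2, Ndufa4l2, Mxi1 and Bhlhe40 are hypoxia response genes that encode no glycolytic enzyme. They were taken from the deposited table by gene name, and all 8 had a single row among its 43686 rows. In hearts of mice that had lost the succinate dehydrogenase assembly factor Sdhaf4, 6 of the 8 were higher than in control hearts, Mxi1 was lower, and Ndufa4l2 did not pass the test. These counts stand beside 25.6% of all rows tested that were higher and 25.5% that were lower. Ankrd37 and Bhlhe40 rose by log2 fold changes of 2.03 and 2.00, about 4-fold, whereas the 4 other genes that rose did so by 1.28-fold to 1.81-fold.

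RNA-seq libraries were made from fresh ventricular wall of 6 wild-type (WT) and 6 Sdhaf4-/- (KO) mice, labelled C57BL/6 and of C57BL/6J background by the study's methods, to ask how cardiac transcription differs when Sdhaf4 is absent. By the study's methods the WT mice were Sdhaf4 fl/fl littermates without Cre. The KO mice carried the same floxed alleles and Ckmm-Cre, which is driven by the muscle creatine kinase promoter and is active in cardiac and skeletal muscle. Other cells of the ventricle therefore still held an intact gene, and both groups carried the floxed allele. The labels give an age of 2 months for all 12 hearts. The main text gives a somewhat younger age, and the reporting summary gives male mice for the omics work, the older of its stated ages matching the labels.

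Under normal oxygen, prolyl hydroxylases mark the alpha subunits of hypoxia-inducible factor (HIF) for destruction through the von Hippel-Lindau protein. When oxygen is short, or when succinate accumulates and competes with the 2-oxoglutarate that these enzymes need, the alpha subunits last longer and switch on genes through a short DNA core, ACGTG or GCGTG. The 8 genes stand for arms of this response other than glycolysis. Adm encodes the vasodilator peptide adrenomedullin. P4ha1 and P4ha2 encode catalytic subunits of the collagen prolyl 4-hydroxylase of the endoplasmic reticulum. Bhlhe40 and Mxi1 encode transcriptional repressors, Ndufa4l2 a mitochondrial paralog of the complex IV subunit Ndufa4, Ndrg1 a stress-induced cytoplasmic protein, and Ankrd37 a small ankyrin repeat protein.

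The upstream sequences are shown for the HIF core letters that lie close to the start sites of these genes. RefSeq promoter entries (GRCm38.p6) were matched by symbol for 5 of the 8 genes, Adm, Ankrd37, P4ha1, P4ha2 and Mxi1, in 7 windows, because Mxi1 has entries for several start sites. The 250 bases before each start site were searched on both strands for ACGTG and GCGTG, which read CACGT and CACGC on the other strand, and matches may overlap. A window is printed 5′ to 3′ on the strand of its gene, with the matched letters in capitals. Bases that GENCODE M21 places in an exon were left out, which shortened the Ankrd37 window by 17 bases and removed all 250 bases of the third Mxi1 window. The windows are chr7:110627407-110627656 (plus strand) for Adm, chr8:45999868-46000100 (minus strand) for Ankrd37, chr10:59323046-59323295 (plus strand) for P4ha1, chr11:54100674-54100923 (plus strand) for P4ha2 and chr19:53329163-53329412 (plus strand) for Mxi1.
Adm: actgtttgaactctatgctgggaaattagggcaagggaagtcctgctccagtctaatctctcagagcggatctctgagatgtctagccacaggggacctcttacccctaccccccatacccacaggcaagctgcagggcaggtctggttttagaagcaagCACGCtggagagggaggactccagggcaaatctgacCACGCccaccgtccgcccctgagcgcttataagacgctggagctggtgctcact
Ankrd37: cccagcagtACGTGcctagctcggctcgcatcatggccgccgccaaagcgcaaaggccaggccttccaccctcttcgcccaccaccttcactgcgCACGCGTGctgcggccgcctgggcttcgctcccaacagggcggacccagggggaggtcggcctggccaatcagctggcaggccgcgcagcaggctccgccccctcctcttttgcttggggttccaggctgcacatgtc
P4ha1: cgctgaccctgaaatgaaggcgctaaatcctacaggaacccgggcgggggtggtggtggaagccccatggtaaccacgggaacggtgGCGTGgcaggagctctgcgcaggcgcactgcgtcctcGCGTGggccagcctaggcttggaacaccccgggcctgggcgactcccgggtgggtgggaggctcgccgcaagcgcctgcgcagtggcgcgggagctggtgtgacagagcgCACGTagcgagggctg
P4ha2: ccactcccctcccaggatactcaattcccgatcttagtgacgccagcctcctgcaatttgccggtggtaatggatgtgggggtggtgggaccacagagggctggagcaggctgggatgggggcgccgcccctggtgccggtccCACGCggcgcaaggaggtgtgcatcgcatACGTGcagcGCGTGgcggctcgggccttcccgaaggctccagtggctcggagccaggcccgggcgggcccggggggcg
Mxi1: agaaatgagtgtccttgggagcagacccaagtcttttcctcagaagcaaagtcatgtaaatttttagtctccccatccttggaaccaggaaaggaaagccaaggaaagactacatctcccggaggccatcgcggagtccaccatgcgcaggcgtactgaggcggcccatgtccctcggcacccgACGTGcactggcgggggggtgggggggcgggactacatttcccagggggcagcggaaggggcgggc

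Adm held 2 matches, at 90 and 54 bases before its start site. Ankrd37 held 3 in the printed stretch, of which the pair at 155 and 152 bases shares letters in the run CACGCGTG. A further Ankrd37 match, 6 bases before the RefSeq start site, lies within the bases left out. P4ha1 held 3 matches, the nearest 16 bases before its start site, and P4ha2 held 3 between 107 and 69 bases. Mxi1, the gene that fell, held 1 match in the printed window. Of its other windows, the first held 0, and the third held 1 that lies in exon bases and is not printed. At least 1 of the cores occurred in 38.6% of 32817 promoter windows of this length, so a match on its own is common. The letters CACGTG, the E-box that Bhlhe40 and MAX-containing dimers recognise, were present in 6.02% of windows and in 0 of the windows of these genes. A match is a description of letters and was not tested for binding.

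Between 23747014 and 27159228 reads were counted per WT library and between 26542930 and 31393393 per KO library. Levels are given as CPM (counts divided by the sequencing depth of the library) after scaling by edgeR's TMM method, which divides out differences in depth and composition between libraries. Fold changes are from edgeR's quasi-likelihood test over 17155 rows with enough counts, with Benjamini-Hochberg adjusted p-values, and a gene was called changed at an adjusted p under 0.05. Sdhaf4 itself ranged from 14.3 to 30.3 CPM in WT (median 26.7) and from 2.25 to 2.73 CPM in KO (median 2.35), a log2 fold change of -3.39 (SE 0.16, n = 6 and 6, adjusted p = 1.95e-10). The heart labelled WT replicate 6 held the lowest WT value of Sdhaf4, and the next WT heart was at 24.1 CPM. The labelled tissue held its defining markers, with the 10 cardiomyocyte genes examined summing to between 46900 and 64200 CPM in every heart.

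All 8 genes passed the filter on low counts, with between 52 and 2916 reads per heart. Of all rows tested, 51.1% were called in one direction or the other, 25.6% higher and 25.5% lower in KO. Against this, 6 of the 8 genes were higher and 1 was lower, with a median log2 fold change of 0.70, where the median of all rows was 0.00. Under a stricter threshold, an adjusted p under 0.005 with a log2 fold change over 1, 2 genes passed, both higher, beside 5.36% of all rows higher and 4.87% lower by this rule. In 5 genes (Adm, Ankrd37, P4ha1, P4ha2 and Bhlhe40) every KO heart lay above every WT heart, as in 14.9% of all rows.

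**Figure D1:**
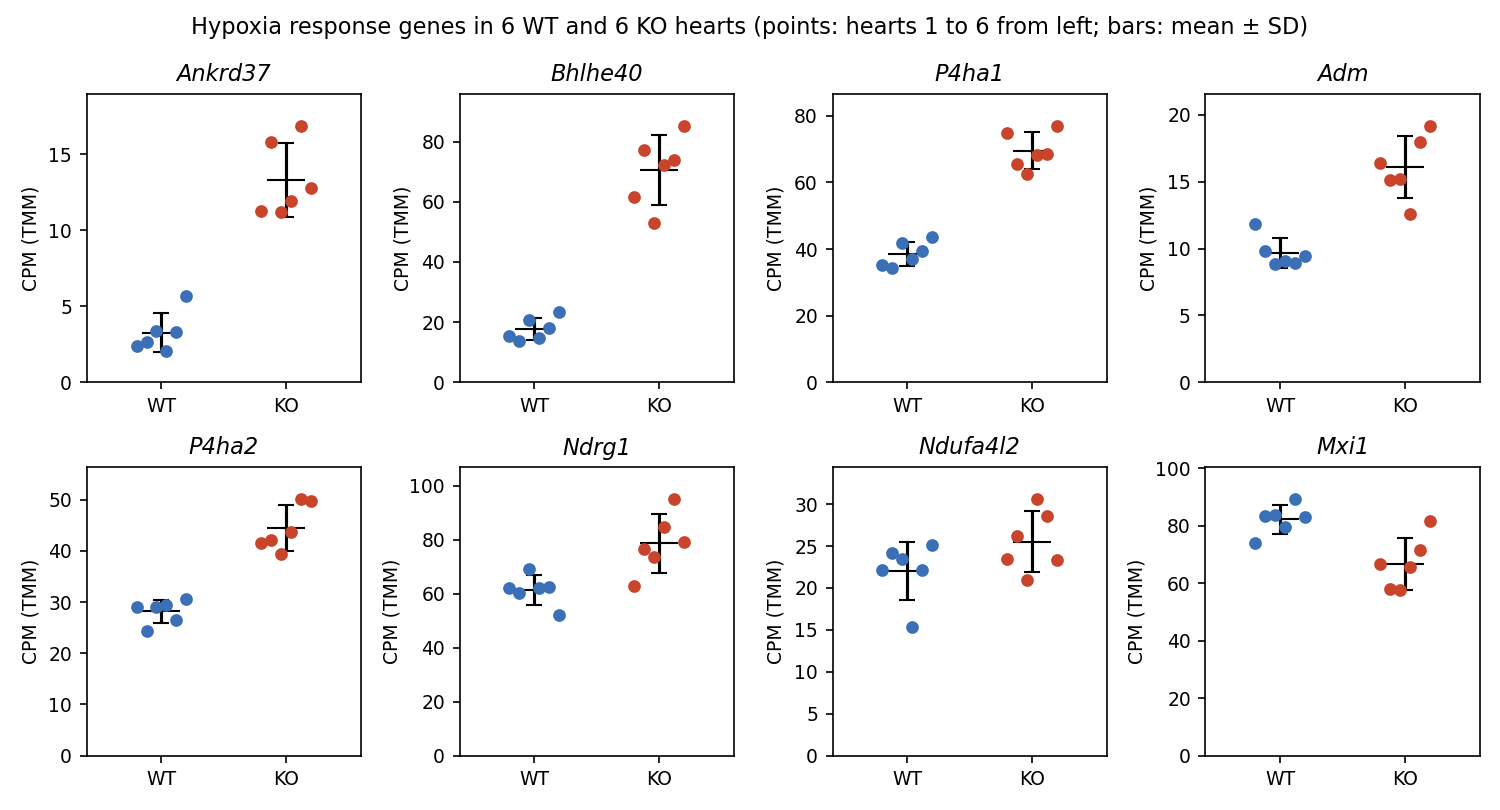
CPM (TMM-scaled, linear axis from 0) of each gene in the 6 WT and 6 KO hearts, with points for single hearts in the order of their replicate numbers and bars for the mean ± SD. The KO hearts lie above all WT hearts for Ankrd37, Bhlhe40, P4ha1, Adm and P4ha2, and the groups overlap for Ndrg1, Ndufa4l2 and Mxi1.

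**Figure D2:**
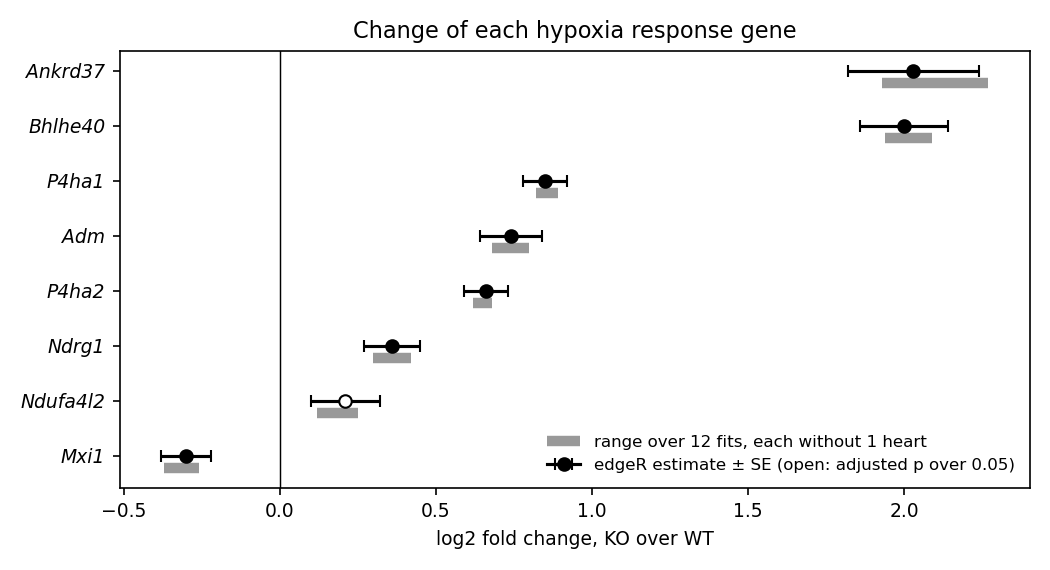
log2 fold change of KO over WT for each gene, with the edgeR estimate ± SE as points and the range over 12 fits that each leave out 1 heart as grey bars. Ankrd37 (2.03) and Bhlhe40 (2.00) stand at the right, Mxi1 (-0.30) is the only gene left of 0, and the open point marks Ndufa4l2, which was not called.

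Among the ligands of the response, Adm (MGP_C57BL6NJ_G0033352, chromosome 7:118849571-118851730 of the C57BL/6NJ assembly, plus strand) ranged from 8.85 to 11.8 CPM in WT with a median of 9.27. In KO it ranged from 12.6 to 19.2 CPM with a median of 15.8. The groups did not overlap, and the gap between the highest WT heart, replicate 1, and the lowest KO heart, replicate 4, was small beside the spread within KO. The means were 9.65 ± 1.10 (SD, n = 6) and 16.1 ± 2.33 (SD, n = 6) CPM, a log2 fold change of 0.74 (SE 0.10, adjusted p = 1.49e-05).

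Of the 7 genes of the receptors and processing of adrenomedullin with enough counts, 3 were higher in KO and 2 were lower. These shares, 42.9% and 28.6%, stand beside 25.6% and 25.5% of all rows. With 7 genes, the counts are not a result about the system. Calcrl, the receptor that binds adrenomedullin together with a RAMP protein, had a mean of 34.2 ± 3.59 CPM in WT and 54.0 ± 7.47 CPM in KO (log2 fold change 0.66, SE 0.09, adjusted p = 1.2e-05). Pam, the enzyme that amidates the peptide to its active form, rose from 686 ± 50.7 to 1740 ± 63.5 CPM (log2 fold change 1.34, SE 0.06, adjusted p = 3.28e-11). The 3 RAMP genes, which set whether Calcrl responds to adrenomedullin or to calcitonin gene-related peptide, differed from each other. Ramp1, which with Calcrl forms the receptor for calcitonin gene-related peptide, fell from 13.2 ± 1.28 to 2.41 ± 0.733 CPM, and no KO heart reached the lowest WT heart (log2 fold change -2.44, SE 0.17, adjusted p = 7.93e-09). Ramp3 rose by a log2 fold change of 0.57 (SE 0.21, adjusted p = 0.0338) with overlapping groups. Ramp2, the partner in the main vascular adrenomedullin receptor, had a mean of 56.5 ± 7.97 CPM in WT and 62.7 ± 13.9 CPM in KO and was not called (adjusted p = 0.424). Ackr3, an atypical receptor that takes up adrenomedullin, fell from 111 ± 13.2 to 55.3 ± 4.25 CPM (log2 fold change -1.01, SE 0.07, adjusted p = 1.01e-08). In RNA of a whole ventricle, fewer cells of a type and less RNA per cell cannot be told apart. The 10 endothelial markers examined, of cells that express much of this system, had 5 members higher (50%) and 2 lower (20%). None was at 0, and their summed level was 3170 to 3620 CPM in WT and 3080 to 3670 CPM in KO. Their part in these changes was not tested.

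Both collagen prolyl 4-hydroxylase genes rose, P4ha1 more than P4ha2. P4ha1 (MGP_C57BL6NJ_G0017651, chromosome 10:60587227-60640002, plus strand) ranged from 34.3 to 43.5 CPM in WT (median 38.1) and from 62.6 to 77.1 CPM in KO (median 68.4). The lowest KO heart was well above the highest WT heart. The log2 fold change was 0.85 (SE 0.07, adjusted p = 2.9e-08), from means of 38.5 ± 3.70 and 69.5 ± 5.54 CPM. P4ha2 (MGP_C57BL6NJ_G0018703, chromosome 11:55212561-55245999, plus strand) ranged from 24.4 to 30.6 CPM in WT (median 29.1) and from 39.3 to 50.1 CPM in KO (median 42.9). Its groups did not overlap either, and the log2 fold change was 0.66 (SE 0.07, adjusted p = 1.17e-06), from means of 28.2 ± 2.31 and 44.4 ± 4.48 CPM.

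The balance of the pair was compared within each heart as the log2 ratio of deposited FPKM (fragments scaled by gene length and by depth), which does not depend on scaling between libraries. P4ha1 over P4ha2 ranged from -1.14 to -0.84 in WT (median -0.91) and from -0.96 to -0.56 in KO (median -0.77). KO replicate 5 lay within the WT range and the other KO hearts lay above it. The mean rose from -0.96 ± 0.12 to -0.76 ± 0.13, a difference of 0.20 (SE 0.072, two-sided exact permutation test over hearts, p = 0.0152, and 0.0228 after Benjamini-Hochberg adjustment over the 3 ratios compared). P4ha3, the other catalytic subunit, had 0 to 5 reads in each WT heart and 8 to 31 in each KO heart, too few to enter the test.

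Genes around the hydroxylases mostly moved the same way as P4ha1 and P4ha2. Of 16 tested genes for collagen hydroxylation, folding and fibrillar collagens, 14 were higher (87.5%, beside 25.6% of all rows), 1 was lower and 1 was not called. Their median log2 fold change was 0.75. P4hb, the beta subunit that pairs with both P4ha proteins, rose from 201 ± 11.4 to 276 ± 11.9 CPM (log2 fold change 0.46, SE 0.05, adjusted p = 7.96e-07). The prolyl 3-hydroxylase P3h2 rose by a log2 fold change of 1.57 (SE 0.10, adjusted p = 3.03e-09), P3h3 by 1.06 (SE 0.11, adjusted p = 5.67e-07) and P3h1 by 0.53 (SE 0.07, adjusted p = 5.89e-06). P3h4, which lacks hydroxylase activity and belongs to a lysyl hydroxylation complex, was the member that fell, from 53.7 ± 5.06 to 24.9 ± 3.28 CPM (log2 fold change -1.11, SE 0.09, adjusted p = 1.79e-08). The type I collagen chains are among the substrates of P4ha1 and P4ha2, and their values were spread widely among KO hearts. Col1a2 went from 161 ± 21.8 to 623 ± 211 CPM (log2 fold change 1.96, SE 0.22, adjusted p = 1.37e-05) and Col1a1 from 93.1 ± 12.6 to 343 ± 122 CPM (log2 fold change 1.88, SE 0.23, adjusted p = 3.91e-05). The collagen chaperone gene Serpinh1 stood at 150 ± 25.5 CPM in WT and 149 ± 32.5 CPM in KO and was not called (adjusted p = 0.952).

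Fibroblasts make most of the heart's fibrillar collagen, and their markers moved with this group. Of 10 fibroblast markers, 7 were higher (70%) and 2 were lower (20%) in KO, beside 25.6% and 25.5% of all rows. None was at 0, and their summed level was 2820 to 3490 CPM in WT and 3360 to 4040 CPM in KO. The mean of their log2 CPM was 0.51 higher in KO (two-sided exact permutation test over hearts, p = 0.00649, adjusted over 6 marker lists 0.0389). By the same measure cardiomyocyte markers differed by -0.19 (exact permutation p = 0.026, adjusted 0.078), with 5 of 10 lower (50%) and 1 higher (10%). Their part in the rise of P4ha1, P4ha2 and the collagens was not tested.

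Of the transcriptional repressors, Bhlhe40 (also called DEC1 or Stra13; MGP_C57BL6NJ_G0031540, chromosome 6:113850007-113856352, plus strand) ranged from 13.8 to 23.2 CPM in WT (median 16.7) and from 53.0 to 85.3 CPM in KO (median 73.0). The KO heart with the lowest value, replicate 3, was above the highest WT heart, replicate 6, by more than the whole WT range. The means were 17.6 ± 3.73 and 70.5 ± 11.5 CPM, a log2 fold change of 2.00 (SE 0.14, adjusted p = 9.28e-08). Its paralog Bhlhe41 (DEC2), which like Bhlhe40 represses clock genes through E-boxes, rose from 10.8 ± 1.31 to 30.4 ± 3.71 CPM (log2 fold change 1.5, SE 0.09, adjusted p = 1.64e-09), also without overlap.

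Of 17 genes of the circadian clock, on which Bhlhe40 acts, 6 were higher, Bhlhe41 included, 5 were lower and 6 were not called, with a median log2 fold change of 0.08. These shares, 35.3% higher and 29.4% lower, are near those of all rows (25.6% and 25.5%), so the counts are not a result about the clock. Ciart, a repressor of the core clock, rose from 1.42 ± 0.34 to 7.9 ± 2.36 CPM (log2 fold change 2.47, SE 0.21, adjusted p = 6.83e-08). Dbp, an output of the clock driven through E-boxes, rose from 9.29 ± 1.87 to 30.2 ± 8.68 CPM (log2 fold change 1.70, SE 0.20, adjusted p = 1.45e-05). Per2 and Nr1d1, repressors within the clock, rose by log2 fold changes of 1.05 (SE 0.20, adjusted p = 0.000541) and 0.92 (SE 0.16, adjusted p = 0.000304). Npas2, an activating partner of Arntl, fell from 11.2 ± 1.91 to 5.95 ± 2.07 CPM (log2 fold change -0.91, SE 0.20, adjusted p = 0.00121). The hour at which each heart was taken is not given in the sources used here, and clock genes differ with the hour of the day.

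Mxi1 (MGP_C57BL6NJ_G0025658, chromosome 19:54735642-54803845, plus strand), which competes with MYC for their shared partner MAX, went against the other genes. It ranged from 74.0 to 89.2 CPM in WT (median 83.1) and from 57.5 to 81.6 CPM in KO (median 66.0). KO replicate 6 lay inside the WT range, and the other KO hearts lay below all WT hearts. The means were 82.1 ± 5.07 and 66.8 ± 9.04 CPM, a log2 fold change of -0.30 (SE 0.08, adjusted p = 0.00347). The predicted gene Gm10197 shares 201 bases with Mxi1 on the opposite strand. It stood at 3.39 CPM in WT and 2.94 CPM in KO, and no source used here says whether the counting was strand-specific.

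Of 14 other genes of the MYC and MAX network that were tested, 5 were higher, 4 were lower and 5 were not called, with a median log2 fold change of -0.04. The shares of 35.7% higher and 28.6% lower are likewise near those of all rows. Max itself rose from 58.0 ± 4.67 to 72.4 ± 4.13 CPM (log2 fold change 0.32, SE 0.06, adjusted p = 0.000202). Mxd4, a MAX-binding repressor of the same family as Mxi1, rose from 164 ± 13.0 to 293 ± 32.6 CPM (log2 fold change 0.83, SE 0.07, adjusted p = 8.27e-08). Myc stood at 6.49 ± 1.79 CPM in WT and 5.5 ± 1.19 CPM in KO and was not called (adjusted p = 0.273). Mlxipl, the glucose-responsive factor ChREBP, fell from 24.4 ± 2.65 to 5.08 ± 1.95 CPM (log2 fold change -2.26, SE 0.19, adjusted p = 3.82e-07). Mycl rose by a log2 fold change of 2.79 (SE 0.44, adjusted p = 5.39e-05) from a low level of 0.228 ± 0.0815 CPM to 1.61 ± 0.916 CPM. Mycn fell from 2.34 ± 0.706 to 1.05 ± 0.346 CPM (log2 fold change -1.15, SE 0.27, adjusted p = 0.00182).

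Ankrd37 (MGP_C57BL6NJ_G0034077, chromosome 8:46782297-46785262, minus strand) had the lowest WT counts of the 8 genes and, with Bhlhe40, the largest fold change, the estimates of the pair differing by less than their standard errors. It ranged from 2.07 to 5.66 CPM in WT (median 2.98) and from 11.2 to 16.9 CPM in KO (median 12.3). The WT heart at 5.66 CPM was replicate 6, the other WT hearts did not exceed 3.38 CPM, and no KO heart came near this range. The means were 3.25 ± 1.29 and 13.3 ± 2.44 CPM, a log2 fold change of 2.03 (SE 0.21, adjusted p = 9.11e-07). Its row overlaps Ufsp2 by 57 bases and Lrp2bp by 565 bases, both on the opposite strand. Reads of the overlap cannot be told apart without strand, and Ufsp2 stood at 24.2 CPM in WT and 29.6 CPM in KO (log2 fold change 0.30) and Lrp2bp at 0.894 and 1.20 CPM. Of 3 muscle ankyrin repeat genes looked for beside it, Ankrd23 had no row and Ankrd2 had too few counts. Only Ankrd1, known from cardiac stress, was tested. Ankrd1 rose from 880 ± 137 to 7420 ± 1570 CPM (log2 fold change 3.08, SE 0.14, adjusted p = 5e-10).

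Ndrg1 (MGP_C57BL6NJ_G0022315, chromosome 15:69027315-69068190, minus strand) ranged from 52.1 to 69.2 CPM in WT (median 62.0) and from 62.8 to 95.0 CPM in KO (median 77.9). The groups overlapped through KO replicate 1 at 62.8 CPM, and the other KO hearts, from 73.4 CPM, lay above all WT hearts. The means were 61.3 ± 5.48 and 78.6 ± 10.9 CPM, a log2 fold change of 0.36 (SE 0.09, adjusted p = 0.00222). Its paralogs differed from it and from each other. Ndrg4, the family member best known from heart and brain, rose from 411 ± 46.5 to 1110 ± 83.7 CPM (log2 fold change 1.44, SE 0.08, adjusted p = 3.09e-10). Ndrg2 fell from 1630 ± 67.9 to 1170 ± 137 CPM (log2 fold change -0.48, SE 0.07, adjusted p = 2.97e-05), and Ndrg3 stood at 18.8 ± 1.65 and 20.8 ± 2.15 CPM (adjusted p = 0.148).

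Ndufa4l2 (MGP_C57BL6NJ_G0018218, chromosome 10:135576184-135578397, plus strand) was the gene of the 8 that was not called. It ranged from 15.4 to 25.1 CPM in WT (median 22.8) and from 20.9 to 30.6 CPM in KO (median 24.8), and the groups shared the stretch from 20.9 to 25.1 CPM. The means were 22.1 ± 3.47 and 25.5 ± 3.64 CPM, a log2 fold change of 0.21 (SE 0.11, adjusted p = 0.139). Without WT replicate 4, the lowest heart at 15.4 CPM, the log2 fold change was 0.12 (adjusted p = 0.309). Without WT replicate 6 and KO replicate 3, a fit chosen after the data had been seen, it was 0.29 (adjusted p = 0.0482). The row shares 30 bases with Shmt2 on the opposite strand.

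Ndufa4, the paralog that sits in complex IV, fell in the same hearts. It ranged from 911 to 1140 CPM in WT (median 1040) and from 635 to 706 CPM in KO (median 682), a log2 fold change of -0.61 (SE 0.06, adjusted p = 3.55e-07). The log2 ratio of Ndufa4l2 to Ndufa4 within a heart, in FPKM, ranged from -6.35 to -5.56 in WT (median -5.96) and from -5.45 to -4.86 in KO (median -5.10). No KO heart overlapped the WT hearts. The mean ratio rose from 0.0166 ± 0.00314 to 0.029 ± 0.00401, a log2 difference of 0.82 (SE 0.14, two-sided exact permutation p = 0.00216, the smallest that 6 against 6 hearts can give, adjusted over the 3 ratios 0.00648). Ndufa4l2 thus stayed a small part of the pair in both genotypes. Of the 15 complex IV genes examined, Ndufa4 included, 12 were lower (80%, beside 25.5% of all rows) and 2 higher. The muscle isoforms Cox7a1, Cox8b and Cox6a2 fell by log2 fold changes of -1.20 (SE 0.07, adjusted p = 1.47e-09), -0.72 (SE 0.09, adjusted p = 4.54e-06) and -0.68 (SE 0.08, adjusted p = 2.81e-06). Of their non-muscle counterparts, Cox7a2 also fell, by a log2 fold change of -0.38 (SE 0.07, adjusted p = 0.000355). Cox8a rose by 0.16 (SE 0.05, adjusted p = 0.0197) and Cox6a1 by 0.43 (SE 0.06, adjusted p = 1.22e-05).

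In the heart Ndufa4l2 is also a transcript of pericytes and smooth muscle. Of 10 markers of these cells, 3 were higher (30%) and 2 lower (20%) in KO, near the 25.6% and 25.5% of all rows. None was at 0, and their summed level was 1880 to 2060 CPM in WT and 1720 to 2270 CPM in KO. The mean of their log2 CPM differed by -0.03 (exact permutation p = 0.758, adjusted over 6 marker lists 0.775). Relative to the geometric mean of these markers, the log2 ratio of Ndufa4l2 CPM was -2.09 ± 0.31 in WT and -1.85 ± 0.14 in KO, a difference of 0.24 (SE 0.139, two-sided exact permutation p = 0.0909, adjusted over the 3 ratios 0.0909). The size of this difference rested on single WT hearts. It was 0.13 without WT replicate 4 (exact permutation p = 0.186) and 0.31 without WT replicate 6 (exact permutation p = 0.0216).

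**Figure D3:**
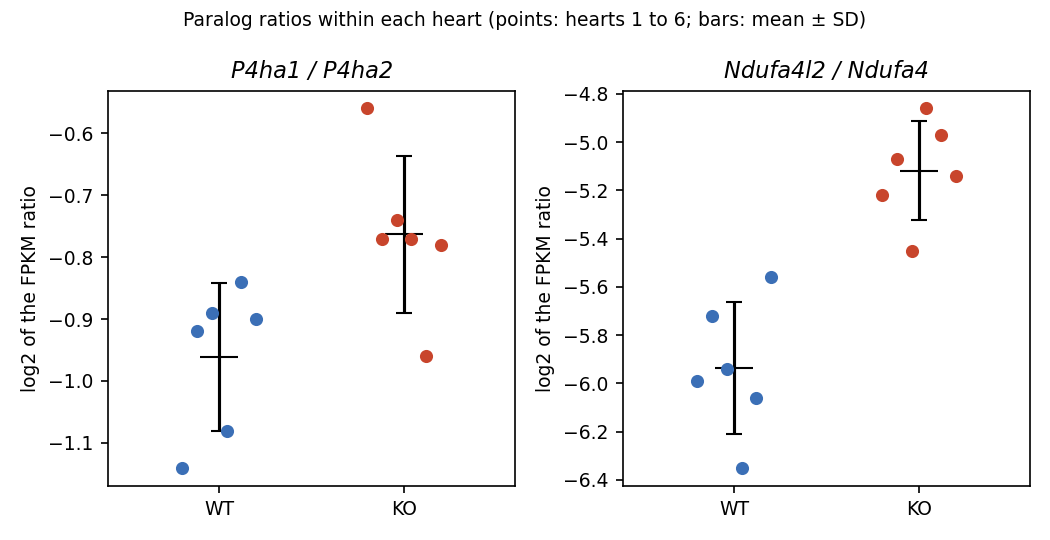
log2 of the FPKM ratio of P4ha1 to P4ha2 and of Ndufa4l2 to Ndufa4 in each heart, with points for hearts and bars for the mean ± SD of 6. The KO hearts lie above all WT hearts for Ndufa4l2 over Ndufa4 (difference 0.82), and overlap them through 1 heart for P4ha1 over P4ha2 (difference 0.20).

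Between genes, levels can be set side by side only per length. By the deposited FPKM the order in WT was Ndrg1 (59.9 ± 4.55), P4ha2 (24 ± 2.05), Ndufa4l2 (23.0 ± 3.88), Mxi1 (22.2 ± 1.37), P4ha1 (12.3 ± 1.24), Bhlhe40 (10.7 ± 2.35), Adm (9.19 ± 1.09) and Ankrd37 (4.29 ± 1.77). The means ± SD of P4ha2, Ndufa4l2 and Mxi1 overlapped, as did those of P4ha1 and Bhlhe40 and of Bhlhe40 and Adm. Overlap of this kind takes no account of the genes being measured in the same hearts, and these differences were not tested. In KO the FPKM order was Ndrg1 (77.0 ± 11.3), Bhlhe40 (42.9 ± 7.12), P4ha2 (37.9 ± 3.97), Ndufa4l2 (26.6 ± 4.37), P4ha1 (22.3 ± 1.90), Mxi1 (18.1 ± 2.42), Ankrd37 (17.6 ± 3.36) and Adm (15.3 ± 2.10). Bhlhe40 stood next to Ndrg1 by this scale and was within its spread of P4ha2. The means ± SD of Ndufa4l2 and P4ha1, P4ha1 and Mxi1, P4ha1 and Ankrd37, and the last 3 genes among themselves overlapped as well. Within every KO heart, however, the FPKM of P4ha1 was above that of Mxi1, and that of Mxi1 above that of Adm. The lengths that the FPKM imply are shorter than the length column for most of these genes, 1022 against 4049 bases for Ndrg1 and 1171 against 3060 bases for P4ha2. On CPM per kilobase of the length column, Ndrg1 stood at 15.1 ± 1.35 in WT, below Ndufa4l2 at 23.0 ± 3.62, and P4ha1 and P4ha2 were level at 9.52 ± 0.916 and 9.21 ± 0.754. On the same scale Adm (6.94 ± 0.788) stood above Bhlhe40 (5.66 ± 1.20) in WT, and in KO Bhlhe40 (22.7 ± 3.70) stood above Ndrg1 (19.4 ± 2.68) and below Ndufa4l2 (26.6 ± 3.79). The order of levels therefore depends on the length used for several of these genes, and the fold changes between genotypes do not.

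The wider hypoxia response was described from lists of genes widely known to be induced by low oxygen. Of the genes listed, Vegfa, Btg1, Pgk1, Pgam1 and Eno1 had no row under these symbols and were not assessed. Plod1, Plod2, Egln1, Egln3 and Bhlhe41 are counted here and again in the collagen, oxygen sensor or clock list. Of 39 other non-glycolytic genes with enough counts, 24 were higher in KO, 6 were lower and 9 were not called, with a median log2 fold change of 0.29. The shares were 61.5% higher and 15.4% lower, beside 25.6% and 25.5% of all rows. The 5 with the smallest p among those that rose were Egln3, Plod2, Bhlhe41, Lox and Edn1. Egln3, an oxygen-sensing prolyl hydroxylase that HIF itself induces, rose from 28.5 ± 2.08 to 125 ± 22.2 CPM (log2 fold change 2.14, SE 0.10, adjusted p = 7.3e-10). Plod2, a collagen lysyl hydroxylase, rose from 40.7 ± 3.68 to 86.0 ± 6.71 CPM, and Lox, which cross-links collagen, from 23.4 ± 1.72 to 105 ± 21.9 CPM. Edn1, the vasoconstrictor peptide endothelin, rose from 7.67 ± 1.06 to 20.7 ± 2.01 CPM, so that a constrictor and the dilator Adm were both higher.

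The 5 with the smallest p among those that fell were Nos2, Vldlr, Bnip3, Pnrc1 and Angptl4. Vldlr, a lipoprotein receptor, fell from 708 ± 39.7 to 380 ± 77.6 CPM, and Angptl4, an inhibitor of lipoprotein lipase that fatty acids also induce, from 111 ± 19.9 to 43.8 ± 14.7 CPM. Bnip3, a mitophagy receptor, fell from 337 ± 37.9 to 195 ± 38.9 CPM (log2 fold change -0.79, SE 0.12, adjusted p = 8.48e-05). Nos2, the inducible nitric oxide synthase, fell from 11.6 ± 2.37 to 4.70 ± 0.904 CPM, and Pnrc1, a nuclear receptor coactivator, from 124 ± 11.9 to 92.8 ± 8.83 CPM. Mxi1 was thus not alone among hypoxia-induced genes in being lower.

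Of 15 glycolytic genes of the hypoxia response, 13 were higher (86.7%, beside 25.6% of all rows) and 2 were not called. Their median log2 fold change was 0.74, beside 0.70 for the 8 genes described here. Among HIF subunits and oxygen sensors, 5 of 9 were higher (55.6%, beside 25.6% of all rows) and 4 were not called. Hif1a rose from 98.0 ± 6.52 to 178 ± 15.5 CPM (log2 fold change 0.86, SE 0.06, adjusted p = 8.5e-09) and Epas1, the HIF-2 alpha gene, from 392 ± 14.0 to 498 ± 29.2 CPM (log2 fold change 0.35, SE 0.05, adjusted p = 2.24e-05). These are transcript levels, and HIF is controlled mainly through the stability of its protein, which was not measured in these files.

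**Figure D4:**
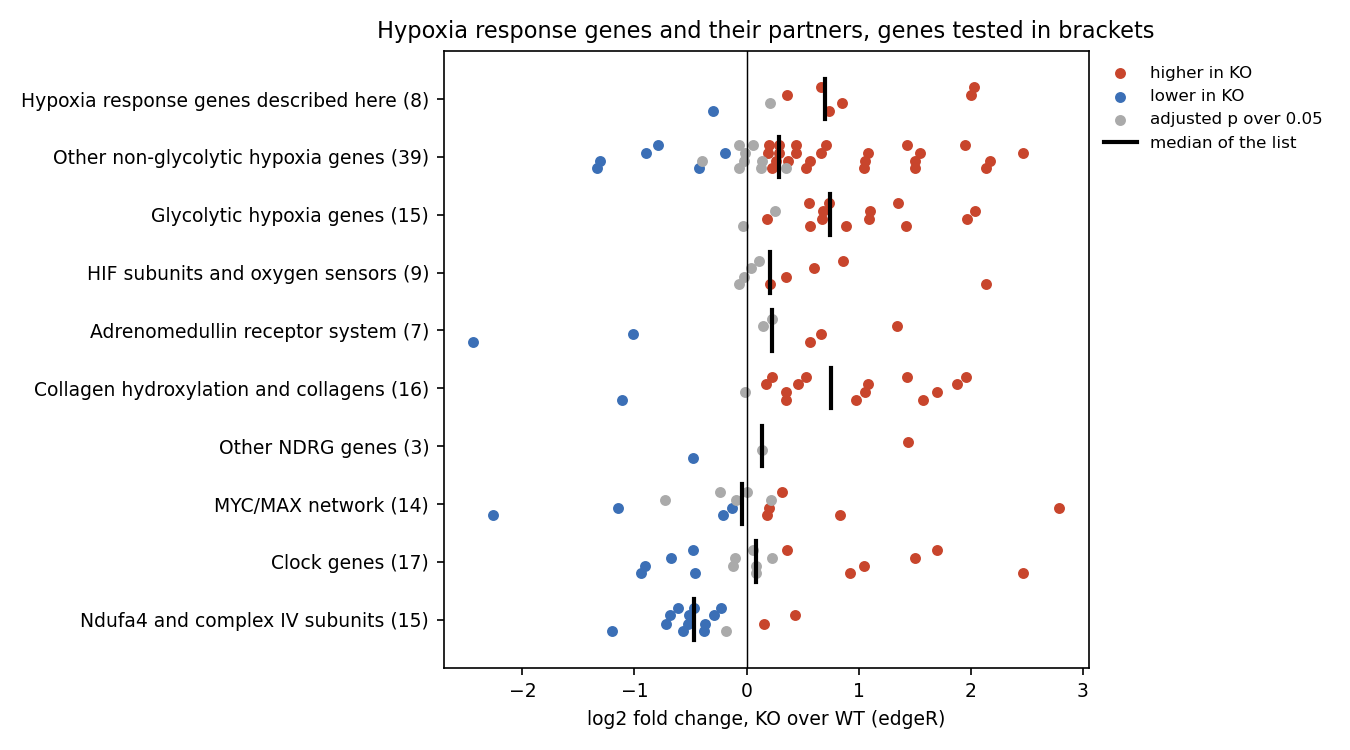
log2 fold change of KO over WT for the 8 genes and for the lists of partner genes, with 1 point per gene tested (red higher, blue lower, grey not called) and a black line for the median of the list. Genes of collagen hydroxylation and folding together with fibrillar collagens (14 of 16) and glycolytic genes (13 of 15) were mostly higher. Complex IV genes (12 of 15) were mostly lower, and the MYC and clock lists lay on both sides of 0. Of all rows tested, 25.6% were higher and 25.5% were lower.

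Some hearts stood apart from others of their genotype over all genes. The chi-square of the counts over its degrees of freedom was 29.1 to 52.6 for pairs with KO replicate 3, 23.9 to 47.9 for pairs with KO replicate 6, and 11.7 to 16.8 among the other KO hearts. It was 15.3 to 22.6 for pairs with WT replicate 6 and 7.41 to 15.5 among the other WT hearts. The values of the 8 genes in these hearts are given beside that difference, and whether they go beyond it was not tested. WT replicate 6, the heart with the lowest WT Sdhaf4, held the highest WT value of 5 of the 8 genes (Ankrd37, P4ha1, P4ha2, Ndufa4l2 and Bhlhe40) and the lowest of Ndrg1. In Ankrd37 it lay 0.87 above the WT mean in log2 CPM, and in Bhlhe40 it lay 0.42 above. KO replicate 3 held the lowest KO value of 6 of the 8 genes (Ankrd37, P4ha1, P4ha2, Ndufa4l2, Mxi1 and Bhlhe40), which included Mxi1, the gene that was lower in KO. Its Bhlhe40 lay 0.39 below the KO mean in log2 CPM, and its Sdhaf4, at 2.25 CPM, was the lowest of the KO hearts. KO Sdhaf4 rests on 63 to 85 reads per heart. All KO hearts but replicate 1 (2.73 CPM) lay between 2.25 and 2.41 CPM, so their order is not resolved. KO replicate 6 held the highest KO value of 4 of the 8 genes (Adm, P4ha1, Mxi1 and Bhlhe40) and the lowest of 0. Without WT replicate 6 and KO replicate 3, 7 genes were higher in place of 6, Ndufa4l2 being the addition, and Mxi1 stayed lower.

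**Figure D5:**
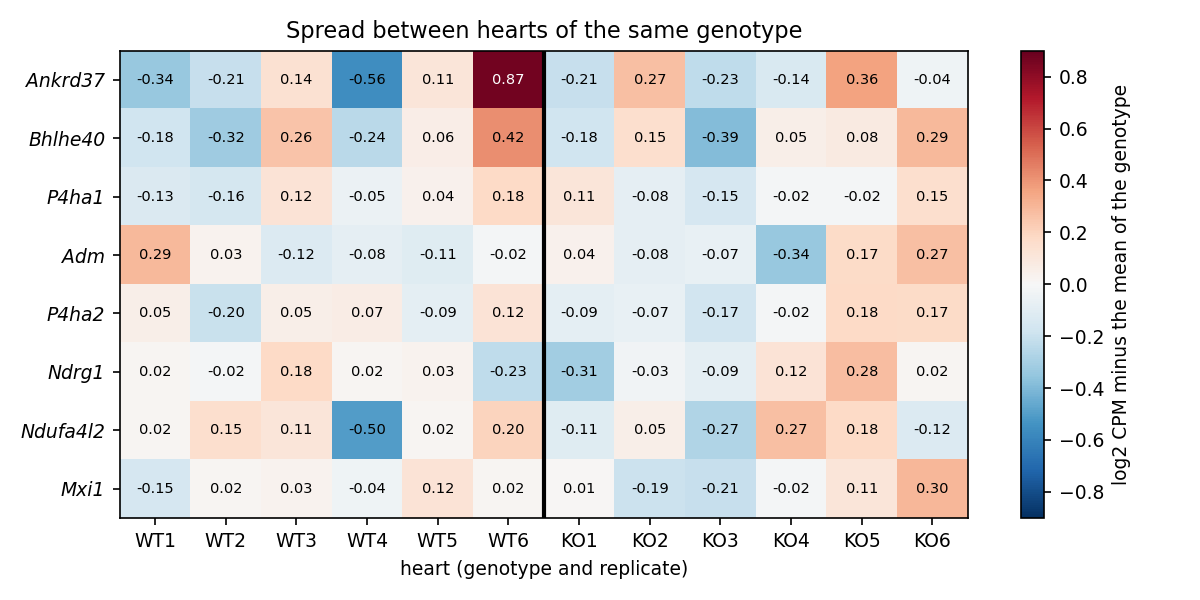
log2 CPM of each gene in each heart minus the mean of its genotype, with red above and blue below the mean and the value printed in each cell. WT6 is above the WT mean in Ankrd37 (0.87) and Bhlhe40 (0.42), and KO3 is below the KO mean in Bhlhe40 (-0.39) and in each of the other genes.

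The genes with the most similar profiles were sought for the 2 genes past the stricter threshold, among 10250 named rows with a mean of at least 5 CPM, by the root mean square difference of log2 CPM relative to the WT mean over the 12 hearts. For Ankrd37 the nearest were Bhlhe40 (0.232) and Nabp1 (0.251), a single-stranded DNA binding protein gene. For Bhlhe40 the nearest were Stc1 (0.181), which encodes the secreted glycoprotein stanniocalcin and stood at 4.58 ± 1.40 CPM in WT and 17.8 ± 2.76 CPM in KO, and again Nabp1 (0.201), which rose from 73.3 to 326 CPM. The measure takes in the difference between the genotypes.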

How the data were processed

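Poly-A mRNA from 12 ventricles was sequenced, and each library took its group and replicate number from its label. The authors counted reads per gene with HTSeq and deposited raw counts. The submitters' processing notes name HISAT2 2.0.5 and mm10, whereas the identifiers (MGP_C57BL6NJ) place the table, and the gene coordinates given here, on the C57BL/6NJ assembly. The authors also deposited FPKM per library and, as a signal, group means of scaled counts, which were not used. The deposited comparison columns (fold changes and p-values) were not used.

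KO and WT counts were compared with the quasi-likelihood test of edgeR 4.0.16 under R 4.3.3 (robust dispersions, TMM, rows kept by filterByExpr, Benjamini-Hochberg over 17155 rows). The standard error is the log2 fold change over the root of F, and log2 CPM used a prior count of 2. Ratios and marker means were compared by exact permutation over hearts. Alternatives used DESeq2 1.42.0, limma 3.58.1, other scalings and filters, log2(FPKM + 1) and log2(FPKM + 0.1), a replicate block, and each heart left out.

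The 8 genes and all lists were chosen with earlier results of these data known. Genes named are the 8, Sdhaf4, called genes or paralogs from lists of up to 20 genes, the 5 with the smallest p in each direction from the longer list, and the 2 nearest profiles of each gene past the stricter threshold. Ramp2, Serpinh1 and Myc, which were not called, and genes that overlap the 8 were added after their values had been seen. Each library was taken as a separate mouse, which the study's methods do not state outright for the RNA-seq. Libraries of a genotype differed beyond sampling noise (chi-square over its degrees of freedom from 7.41). Depth was 23747014 to 31393393 counts.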

Additional observations from a re-analysis of the deposited data

Results flagged for a closer look

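A heart was singled out where its distance to the nearest other heart of its genotype was large for the range of that genotype (Dixon's criterion at 95%). Across 24 groups of 6 hearts this picked out 4, where chance gives about 1 in 20, or 1.2 of the 24. Adm in WT replicate 1 was at 11.8 CPM, with the other WT hearts at 8.85 to 9.83 CPM. Ankrd37 in WT replicate 6 was at 5.66 CPM, with the others at 2.07 to 3.38 CPM. Ndufa4l2 in WT replicate 4 was at 15.4 CPM, below the others at 22.1 to 25.1 CPM. Sdhaf4 in KO replicate 1 was at 2.73 CPM, with the other KO hearts at 2.25 to 2.41 CPM.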

How the results depend on the processing

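The counts of 6 genes higher, 1 lower and 2 past the stricter threshold were the same under all 12 alternatives of scaling, test, filter, block and unit and in all 12 fits that each left out 1 heart, and no log2 fold change of the 8 genes reversed. Leaving out 1 heart moved Ankrd37 between 1.93 and 2.27, Bhlhe40 between 1.94 and 2.09, Mxi1 between -0.37 and -0.26, and Ndufa4l2 between 0.12 (without WT replicate 4) and 0.25. Genes called among the 141 partner genes ranged from 62 to 71 higher (70 as reported) and from 29 to 31 lower (31 as reported). The 141 include genes, such as Car9 and P4ha3, with too few counts to pass the main filter. Over all 17155 rows tested, 4391 were higher and 4376 lower as reported. The median over all rows moved by at most 0.024 in log2 under any setting. Leaving out WT replicate 6 and KO replicate 3 together was added after the data had been seen. It gave Ndufa4l2 a log2 fold change of 0.29 (edgeR adjusted p = 0.0482) and a log2 ratio to the mural markers 0.32 higher in KO (exact permutation p = 0.0476), the cause of which was not tested. That ratio ranged from 0.13 (without WT replicate 4) to 0.31 (without WT replicate 6) over the hearts left out singly, the upper value being past the threshold.

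The replicate numbers shared by the genotypes do not pair the hearts. The correlation of deviations between same-numbered hearts was between -0.162 and 0.024, and 1 of 6 numbers correlated best with its own. With the replicate block the difference in P4ha1 over P4ha2 was 0.20 with an exact sign-flip p of 0.0625. For Ndufa4l2 over Ndufa4 the difference was 0.82 with an exact sign-flip p of 0.0312, the smallest that 6 same-numbered pairs can give. These p-values are not adjusted over the 3 ratios, and after that adjustment neither stays under 0.05. No call among the 8 genes changed with the block. With the block 64 partner genes were higher and 29 lower.

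Ankrd37 in WT rests on 52 to 148 reads per heart, fewer than any other of the 8 genes, and P4ha3 was too shallow to be tested. Rows that overlap others on the opposite strand remain uncertain.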
